A study of Mus musculus with 2 samples.

Results

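Light chain variable gene usage was read from every gene of the count tables whose symbol begins with Igkv or Iglv, which gave 163 members of 32285 genes: 160 Igkv genes of the kappa locus on chromosome 6 and 3 Iglv genes of the lambda locus on chromosome 16. All 163 were found by gene identifier in GENCODE M21 on build GRCm38, where 103 are annotated as functional variable genes and 60 as pseudogenes. Lymph node immune cells of C57BL/6 mice, either wild type (WT) or conditionally deleted for Rpa1 (CKO), were captured with a droplet kit that marks each captured RNA molecule near its 3′ end with a unique molecular identifier (UMI). The protein RPA1 belongs to the complex that coats single-stranded DNA. There was 1 library per genotype. The driver of the deletion, the age of the mice and the number of mice behind each library are not given in the sources used here.

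B cells were gated on raw counts as barcodes with at least 2 UMIs of Cd79a, a signalling chain of the B cell receptor, and no UMI of the T cell receptor chains Cd3d, Cd3e and Cd3g. The gate kept 2631 of 12769 WT barcodes (20.6%) and 7492 of 13754 CKO barcodes (54.5%). A gated cell was assigned a segment where its leading segment had at least 3 UMIs and more than 2 times those of the next. The rule assigned 38 WT cells (1.44% of gated cells, interval 1.02 to 1.98%) and 131 CKO cells (1.75%, 1.46 to 2.07%). With 1 library per genotype there was no replicate spread to test against. The intervals given are exact at 95% and speak of counting error alone.

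A light chain variable exon is assembled in each developing B cell, when the RAG recombinase joins 1 V segment to a J segment and the product is spliced to a constant gene, Igkc for kappa and Iglc1, Iglc2 or Iglc3 for lambda. In the kappa locus a V segment lying in the same orientation as the J segments is joined by deletion of the DNA between them, and an inverted one by inversion. Most mouse B cells carry kappa chains, and a cell usually shows 1 light chain on its surface. The small mouse lambda locus joins Iglv1 mainly to the J segments of Iglc1 and Iglc3, and Iglv2 and Iglv3 mainly to that of Iglc2.

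How far reads tell members apart sets how usage can be read, so the pairs that matter most below are shown first. Each line gives the last 150 bases of the variable exon, 5′ to 3′ on the coding strand, from GENCODE M21 transcripts on GRCm38, with capitals at bases that differ between the members of a pair. Iglv1 at chr16:19085017-19085166 and Iglv2 at chr16:19260401-19260550, both on the minus strand, differ at 5 of these bases and are 97.0% identical over the exon. Igkv12-44 at chr6:69814631-69814780 and Igkv12-46 at chr6:69764523-69764672, both on the minus strand, differ at 13 and are 94.6% identical. Igkv1-117 at chr6:68121678-68121827 and Igkv1-110 at chr6:68271118-68271267, both on the plus strand, differ at 4 and are 96.8% identical.
Iglv1: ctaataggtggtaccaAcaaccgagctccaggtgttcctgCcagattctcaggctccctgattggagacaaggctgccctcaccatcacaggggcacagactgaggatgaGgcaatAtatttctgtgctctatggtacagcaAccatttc
Iglv2: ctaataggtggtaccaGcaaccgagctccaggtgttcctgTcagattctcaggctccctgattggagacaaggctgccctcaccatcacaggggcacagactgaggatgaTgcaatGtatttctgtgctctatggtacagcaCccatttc
Igkv12-44: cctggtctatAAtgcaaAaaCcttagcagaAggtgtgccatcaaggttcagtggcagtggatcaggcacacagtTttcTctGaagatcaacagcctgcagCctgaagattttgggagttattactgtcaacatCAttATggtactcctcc
Igkv12-46: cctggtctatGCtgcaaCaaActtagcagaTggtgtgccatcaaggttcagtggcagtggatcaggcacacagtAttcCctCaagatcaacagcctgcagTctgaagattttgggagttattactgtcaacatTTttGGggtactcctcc
Igkv1-117: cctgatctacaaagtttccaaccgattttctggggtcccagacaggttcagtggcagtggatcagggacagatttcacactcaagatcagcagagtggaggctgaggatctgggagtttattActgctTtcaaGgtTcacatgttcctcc
Igkv1-110: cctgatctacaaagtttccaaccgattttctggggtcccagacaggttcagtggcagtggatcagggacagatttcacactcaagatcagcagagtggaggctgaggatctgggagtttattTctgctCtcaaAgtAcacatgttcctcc

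Such near copies were common. Of the 103 functional members, 49 had another member at least 95% identical over the variable exon, and the median identity to the nearest member was 94.9%. Of the windows of 90 bases along a functional member's transcript, a median of 99.3% occurred in no other member. For 18 functional members under 80% did, with the lowest value, 42.7%, in Igkv6-20, which is 98.3% identical to Igkv6-29. Counts of such members are uncertain, since reads shared by near copies can be lost or split.

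The gated cells carried B cell markers. Each of the 8 B cell markers had a UMI in at least 59.7% of WT and 59.9% of CKO gated cells, and Ms4a1 in 94.2% and 95.7%. Cd79a, which is among the 8, was at 100% in both through the gate. Of the 6 T cell markers the 3 Cd3 chains were at 0 through the gate, and the others reached at most 2.62% and 1.62% of gated cells. The summed level of the 3 NK cell markers was 3.93 CPM (UMIs per 1000000 UMIs of the gated cells) in WT and 13.6 CPM in CKO, and their part in the results was not tested. Median depth was 4019 UMIs per gated cell in WT and 3901 in CKO. Between the libraries 56 barcodes were shared, 7 of them gated in both. No gated cell was left out as a doublet beyond the requirement of no Cd3 UMI.

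Most B cells had no detected variable segment UMI, although Igkc had a UMI in 96.8% of WT and 97.1% of CKO gated cells. Lack of a segment UMI is thus not lack of light chain RNA. No segment UMI was found in 1718 WT cells (65.3%, 63.4 to 67.1%) and 4638 CKO cells (61.9%, 60.8 to 63.0%). The leading segment had 1 UMI in 730 WT and 2234 CKO cells, and 2 UMIs, just below the threshold, in 141 and 481. It had 3 UMIs, just at the threshold, in 18 and 97 cells, and 4 or more in 24 and 42. Only 4 WT and 8 CKO cells reached 3 UMIs without a dominant segment.

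Segment UMIs were nearly absent from T cells, which do not rearrange light chains. Of T cells with at least 3 Cd3 UMIs and none of Cd79a, Cd79b or Ms4a1, 13 of 7428 in WT (0.175%) and 15 of 3069 in CKO (0.489%) had any segment UMI, against 34.7% and 38.1% of gated B cells. None was assigned a segment by the rule, with exact upper bounds of 0.0496% and 0.120%. Median depths of these T cells were 6298 and 5726 UMIs. A segment UMI was thus far more frequent in gated B cells than in these T cells. Leaving out T cells with a B cell marker UMI lowers their level by design. The comparison cannot show whether a single UMI in a B cell names the segment which that cell uses. A lower threshold of 1 UMI, with the same dominance over the next segment, was added after the data were seen. It assigned 811 WT cells (30.8%, 29.1 to 32.6%) and 2431 CKO cells (32.4%, 31.4 to 33.5%). With every cell thinned to 2000 UMIs, which drops 61 shallower cells of WT and 191 of CKO, it assigned 17.6% and 19.7%.

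By the rule, the same few segments led in both libraries. Igkv12-44 had 9 of 38 assigned cells in WT (23.7%, 11.4 to 40.2%) and 27 of 131 in CKO (20.6%, 14 to 28.6%). Igkv1-117 had 5 WT cells (13.2%, 4.41 to 28.1%) and 12 CKO cells (9.16%, 4.82 to 15.5%), and Iglv1, the leading lambda segment, 4 (10.5%, 2.94 to 24.8%) and 16 (12.2%, 7.15 to 19.1%). The CKO over WT ratio of shares was 0.870 (0.397 to 2.10) for Igkv12-44, 0.696 (0.228 to 2.52) for Igkv1-117 and 1.16 (0.374 to 4.77) for Iglv1, so none of the 3 stood apart between the libraries beyond counting error.

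Below them the counts were too small to compare. Igkv12-46 had 1 WT and 11 CKO cells, a CKO over WT ratio of shares of 3.19 with an interval of 0.464 to 137. Igkv10-96 had 3 and 6 cells, Igkv17-127 had 2 and 4, and Igkv1-135 and Igkv1-110 each had 2 and 6. Igkv6-15, Igkv6-25 and Igkv5-43 had 4 CKO cells each and Igkv19-93 and Iglv3 had 3, with none in WT, where a count of 0 of 38 has an exact upper bound of 9.25%. Igkv5-39 and Igkv9-124 had 2 WT cells each and none in CKO, where the bound is 2.78%. The remaining segments with at least 2% in a library, Igkv17-121, Igkv12-41, Igkv6-23, Igkv9-120, Igkv14-111 and Igkv8-34, owed that share to 1 WT cell each.

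In all, 11 segments were found in both libraries, 5 in WT only and 23 in CKO only. Of 25 segments with a mean share of at least 0.5%, 20 were at least 1.5-fold apart, which is 80% of those compared, with 10 higher and 10 lower in CKO. Of the 25, 14 were listed in 1 library only, and 1 WT cell alone was 2.63% of the assigned WT cells. At this depth the rule cannot show a difference in the usage of single segments.

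The 1-UMI assignment gave a finer picture, in which usage in CKO closely followed that in WT. Across all 163 segments the shares had Pearson r = 0.978 and Spearman rho = 0.905, a description across segments that differ in mappability and are not independent replicates. Summed over segments, 13.0% of the assigned cells would have to change segment to turn one profile into the other. Of 49 segments with a mean share of at least 0.5%, 8 (16.3%) were 1.5-fold or more apart: 2 (4.08%) with the higher share in CKO and 6 (12.2%) with the higher share in WT.

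**Figure D1:**
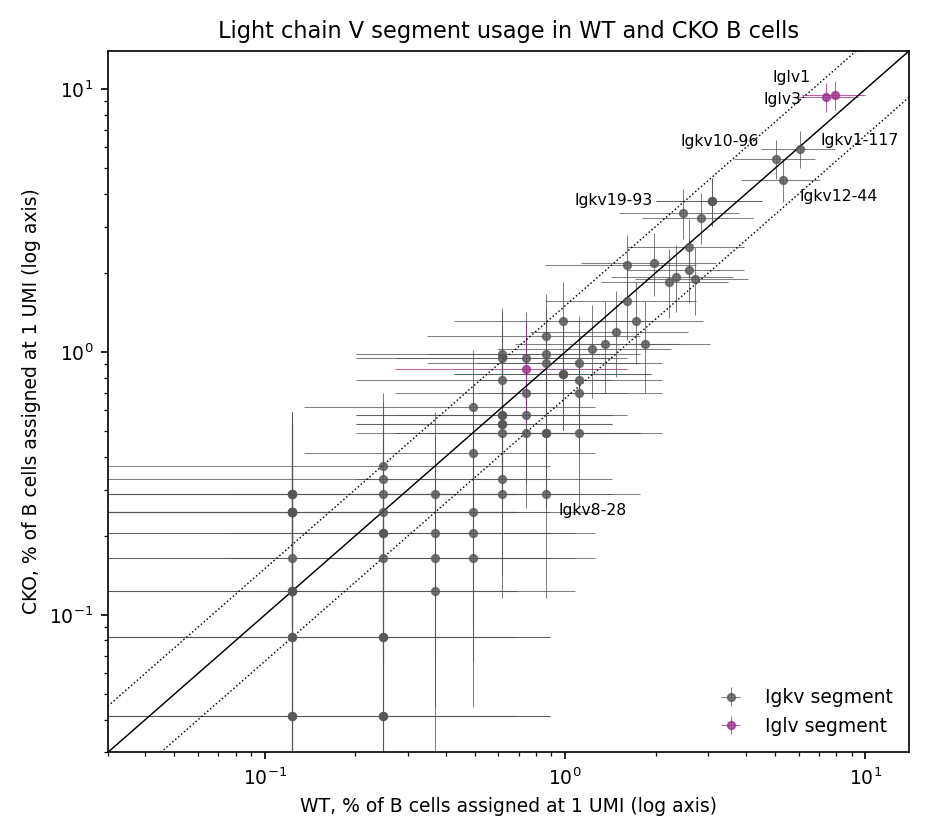
Share of B cells assigned to each light chain V segment at a minimum of 1 UMI, WT on the x axis and CKO on the y axis, both in percent on log axes. Each point is a segment found in both libraries, bars are exact 95% intervals for counting error, the solid line marks equal shares and the dotted lines 1.5-fold. The frequent segments, from Iglv1 down to Igkv19-93, lie inside the dotted lines, and Igkv8-28 lies farthest below them among segments at the 0.5% floor.

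The 3 lambda members, which are taken up again below, had large shares for so few genes. Iglv1 was assigned to 64 WT cells (7.89%, 6.13 to 9.97%) and 231 CKO cells (9.50%, 8.37 to 10.7%), a ratio of 1.20 (0.909 to 1.61). Iglv3 was assigned to 60 (7.4%, 5.69 to 9.42%) and 226 cells (9.30%, 8.17 to 10.5%), a ratio of 1.26 (0.942 to 1.70), and Iglv2 to 6 (0.740%) and 21 cells (0.864%).

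The most used kappa segments at 1 UMI were Igkv1-117, Igkv10-96 and Igkv12-44. Igkv1-117 (chr6:68121046-68121827, plus strand) was found in 49 WT cells (6.04%, 4.50 to 7.91%) and 144 CKO cells (5.92%, 5.02 to 6.94%), a ratio of 0.980 (0.704 to 1.39). Igkv10-96 (chr6:68631963-68632442, minus strand) was found in 41 (5.06%) and 132 cells (5.43%), a ratio of 1.07 (0.751 to 1.56). Igkv12-44 (chr6:69814631-69815154, minus strand) was found in 43 (5.30%) and 110 cells (4.52%), a ratio of 0.853 (0.595 to 1.24). Each of the 3 ratio intervals included 1, and the order of the 3 segments within a library was not tested.

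Next came Igkv1-110 and Igkv12-46, each with 25 WT cells (3.08%) and 91 CKO cells (3.74%). Igkv1-135 had 2.84% and 3.25%, Igkv19-93 had 2.47% and 3.37%, and Igkv17-127 had 2.59% and 2.51%. Igkv14-111 (2.71 and 1.89%), Igkv5-43 (2.59 and 2.06%), Igkv17-121 (2.34 and 1.93%) and Igkv6-23 (2.22 and 1.85%) were lower in CKO by less than 1.5-fold. Igkv6-15 (1.97 and 2.18%) and Igkv9-120 (1.60 and 2.14%) were higher by less than that. All ratio intervals of these segments held 1.

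The 8 segments past 1.5-fold all rested on few cells. Igkv8-28 had 7 WT and 7 CKO cells (0.863 and 0.288%), a ratio of 0.334 (0.0999 to 1.11), and Igkv9-124 had 9 and 12 cells (1.11 and 0.494%), a ratio of 0.445 (0.172 to 1.20). Igkv6-32 was the most frequent, with 15 and 26 cells (1.85 and 1.07%) and a ratio of 0.578 (0.295 to 1.17). Igkv4-57 and Igkv8-30 each had 7 and 12 cells, and Igkv4-59 had 9 and 17. Igkv15-103 was higher in CKO, with 5 and 24 cells and a ratio of 1.60 (0.599 to 5.37), as was Igkv4-51, with 5 and 23 cells and a ratio of 1.53 (0.571 to 5.17). The counting interval of each of the 8 ratios included 1. Next in order on the higher side stood Igkv19-93, with a ratio of 1.37 (0.831 to 2.36). Igkv9-120, Igkv16-104 (8 and 32 cells) and Igkv3-2 (7 and 28 cells) followed, tied at 1.33.

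Usage was broad in both libraries at 1 UMI, and less even in CKO by the inverse Simpson index, a difference that was not tested. The 811 assigned WT cells used 89 segments and the 2431 CKO cells 106; rarefied by formula to 811 cells, the CKO library had 89.6. The effective number of segments, the exponential of the Shannon entropy, was 48.5 in WT and 45.7 in CKO, and grows with the number of cells. The inverse Simpson index, which weights frequent segments more and corrects for the number of cells, was 33.1 and 27.4. Among kappa segments alone the effective numbers were 51.3 and 51.2, and the inverse Simpson indices 37.8 and 34.2. Counting only cells whose constant gene call, given below, matched the chain of the segment, the effective numbers were 52.3 in WT and 52.7 in CKO. Pielou evenness, on a scale to 1, was 0.865 and 0.820 over all segments, an index that falls as more cells add rare segments. The 10 leading segments took 46.0% of WT and 51.3% of CKO assigned cells.

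By the rule the same measures described far fewer cells. The 38 WT cells used 16 segments and the 131 CKO cells 34, or 17.8 after rarefaction to 38 cells. The effective number was 12.1 in WT and 18.5 in CKO, and the inverse Simpson index, which corrects for the number of cells, 11.7 and 12.7. The effective numbers at the 2 thresholds cannot be set against each other, because that index grows with the number of cells.

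Pseudogenes were almost never found. At 1 UMI, 95 of the 103 functional members were assigned to a cell in at least 1 library, and 14 of the 60 pseudogenes. Pseudogenes took 9 WT cells (1.11%) and 30 CKO cells (1.23%), and by the rule none. The most frequent was Igkv2-107, with 4 cells in each library. The 8 functional members never assigned were Igkv1-131, Igkv20-101-2, Igkv4-78, Igkv4-71, Igkv1-35, Igkv7-33, Igkv8-16 and Igkv3-9, and counts cannot tell a segment that is not used from one that is not detected.

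Along the kappa locus, both ends were used more than the middle. Segments within 1000 kb of Igkj1, the J segment nearest to the V segments, took 42.3% of kappa-assigned WT cells (38.5 to 46.1%) and 40.4% in CKO, with 40 functional members. Those beyond 2000 kb took 42.1% (38.4 to 46.0%) and 43.8%, with 29 functional members. The 31 functional members between 1000 and 2000 kb took 15.6% (12.9 to 18.5%) and 15.8%. Per functional member this came to 1.06 and 1.01% near Igkj1, 0.502 and 0.510% in the middle and 1.45 and 1.51% at the far end. Across the 100 functional Igkv members, share and distance to Igkj1 had Pearson r = 0.131 and Spearman rho = 0.0232, so usage followed no straight gradient with distance.

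**Figure D2:**
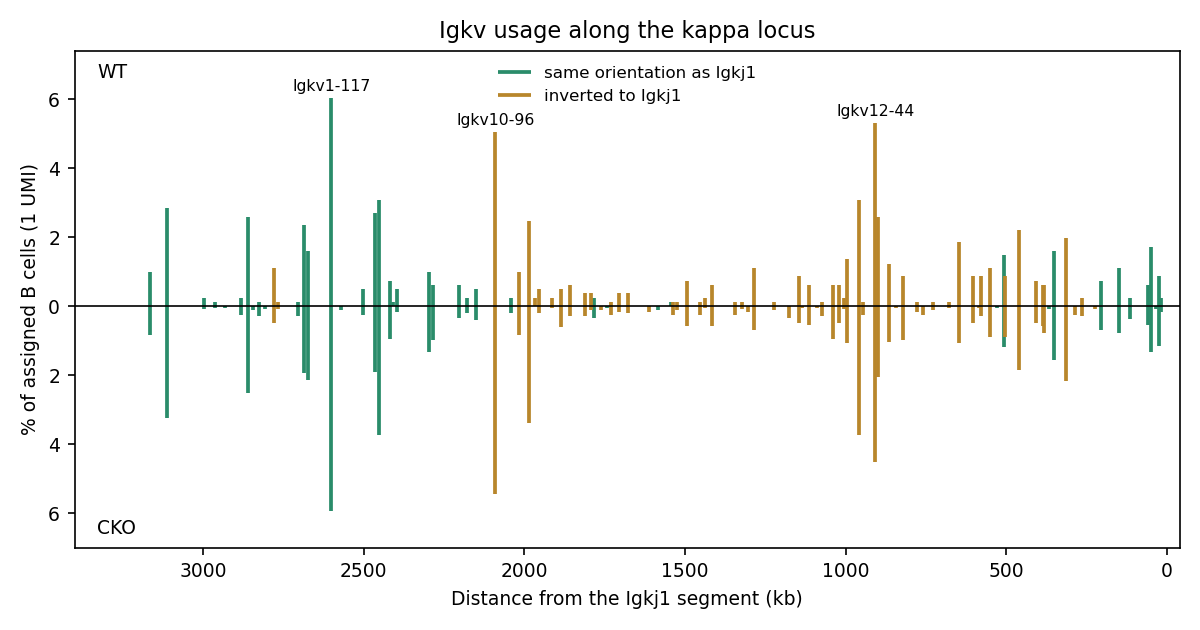
Share of assigned B cells (minimum of 1 UMI) for each Igkv segment by its distance in kb from Igkj1, with WT above and CKO below the zero line and colours for orientation relative to Igkj1. The peaks at Igkv1-117, Igkv10-96 and Igkv12-44 mirror each other in the 2 libraries, and the stretch between 1000 and 2000 kb is low in both.

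Orientation did not separate used from unused segments. The 62 functional members inverted to Igkj1 took 55.8% of kappa-assigned WT cells (52.0 to 59.6%) and 54.2% in CKO. The 38 in the same orientation took 44.2 and 45.8%, which is 0.90 and 0.874% per inverted member and 1.16 and 1.21% per member in the same orientation. The CKO over WT ratio was 0.971 for inverted members and 1.04 for the others.

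Families, the groups of segments related in sequence that the first number of a symbol names, differed widely in usage per member. The largest family, Igkv4, with 26 functional members, took 10.1% of kappa-assigned cells in WT and 9.63% in CKO, or 0.390 and 0.370% per member. Igkv1, with 10 functional members, took 16.0 and 17.2%, and Igkv12, with 6, took 13.1 and 13.2%. Igkv17 (2 functional members) took 5.87 and 5.53%, and Igkv10 (3 members) 7.49 and 8.04%. Igkv19-93, the only member of its family, stood at 2.94 and 4.2% of kappa-assigned cells, a ratio of 1.43 with an interval of 0.869 to 2.46. All 26 functional Igkv4 members lie between 1000 and 2000 kb from Igkj1, where they are 26 of the 31 functional members, and 15 of them have another member at least 95% identical. The low usage of the middle stretch and that of the Igkv4 family therefore cannot be told apart here. Near copies stood at both ends of usage: Igkv1-117, Igkv1-110 and Igkv12-44 were among the most used, and Igkv4-71 and Igkv4-78 were never assigned. Over all functional Igkv members the share of unique windows and usage had Pearson r = -0.114. The part of mappability in usage was not tested.

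Segments also differed in how many UMIs a positive cell held, which moved their shares under the rule. With plasma-like cells left out (at least 10 UMIs of Jchain, the joining chain of secreted IgM and IgA, and a UMI of Xbp1 and of Mzb1), the mean number of UMIs per positive cell had a median of 1.21 over 49 segments with at least 20 positive cells. Igkv12-44 stood apart at 1.8 UMIs per positive cell, ahead of the next segment, Igkv8-19, at 1.46. Of cells with an Igkv12-44 UMI, 9 of 50 in WT (18.0%, 8.58 to 31.4%) and 28 of 133 in CKO (21.1%, 14.5 to 29.0%) reached 3 UMIs. For Igkv10-96, used by about as many cells at 1 UMI, 2 of 43 WT cells and 5 of 165 CKO cells did. The median over the 49 segments was 2.44%. The lead of Igkv12-44 under the rule was not seen at 1 UMI. Richness in adenine, the base an oligo-dT primer binds, had Pearson r = 0.0669 with UMIs per positive cell across the 49 segments, measured as the most A in 20 bases of a transcript.

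**Figure D3:**
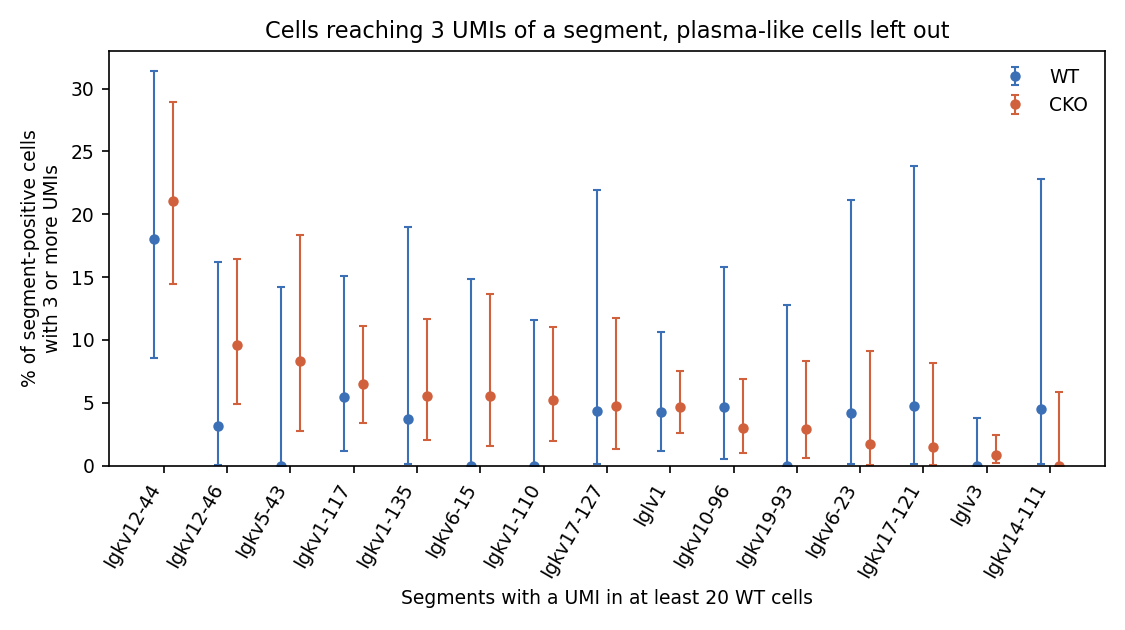
Percent of cells positive for a segment that held at least 3 of its UMIs, for segments with at least 20 positive WT cells, plasma-like cells left out. Points are WT and CKO values and bars exact 95% intervals; Igkv12-44 is highest in both libraries, at 18.0% in WT and 21.1% in CKO.

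Kappa against lambda differed between readouts more than between libraries. By the rule, 4 of 38 WT cells (10.5%, 2.94 to 24.8%) and 20 of 131 CKO cells (15.3%, 9.58 to 22.6%) were assigned an Iglv segment. At 1 UMI these were 130 of 811 (16.0%, 13.6 to 18.7%) and 478 of 2431 (19.7%, 18.1 to 21.3%). By constant genes, with a cell called lambda where Iglc1, Iglc2 and Iglc3 made up at least 80% of its light chain constant UMIs, lambda cells were 140 of 2622 in WT (5.34%, 4.51 to 6.27%) and 397 of 7473 in CKO (5.31%, 4.81 to 5.85%). All other counted cells, mixed ones included, are named kappa below. This threshold was set after seeing the distribution, in which a separate group of cells stood near 100% in both libraries.

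The constant genes split the cells clearly in Igkc, and far less in Iglc2 and Iglc3. Lambda cells had a median of 0 Igkc UMIs in both libraries, and kappa cells 39. Kappa cells nevertheless held a median of 8 Iglc2 UMIs in both and of 7 (WT) and 6 (CKO) Iglc3 UMIs, and 97.2 and 97.5% of them had an Iglc2 UMI. In T cells an Iglc2 UMI was found in 3.53% and 8.73%. Iglc1 had a median of 1 UMI in kappa cells and of 32 (WT) and 27 (CKO) in lambda cells. Igkv transcripts followed the constant call, with a UMI in 31.0 and 33.1% of kappa cells and in 3.57 and 5.04% of lambda cells.

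**Figure D4:**
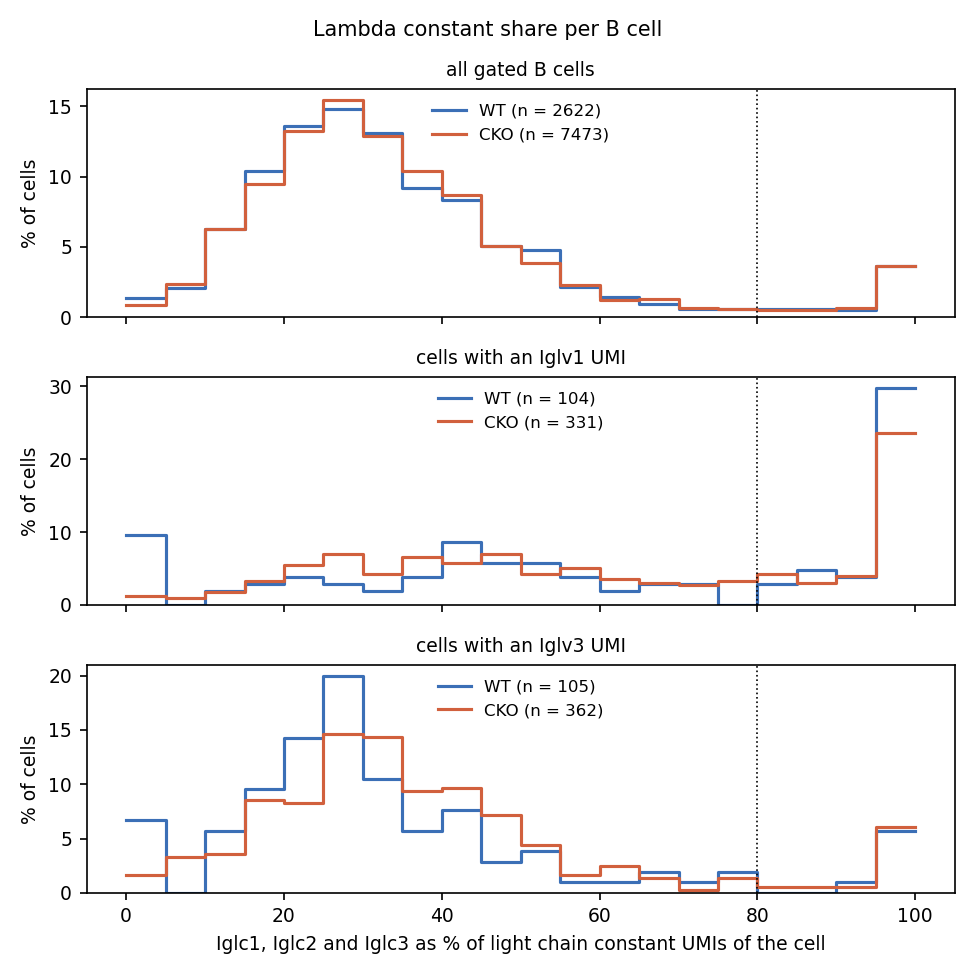
Distribution over gated B cells of the share of Iglc1, Iglc2 and Iglc3 among light chain constant UMIs, in percent, for all cells, cells with an Iglv1 UMI and cells with an Iglv3 UMI, with WT and CKO as lines and the 80% threshold dotted. Cells with an Iglv1 UMI gather near 100% and also spread below it, whereas those with an Iglv3 UMI follow the distribution of all cells.

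Iglv1 transcripts marked lambda cells in part, and Iglv3 transcripts hardly at all. Iglv1 (chr16:19085017-19085500, minus strand) had a UMI in 43 of 140 lambda cells in WT (30.7%, 23.2 to 39.1%) and 115 of 397 in CKO (29.0%, 24.6 to 33.7%), against 2.46 and 3.05% of kappa cells. Kappa cells being far more numerous, they still made up 61 of 104 Iglv1-positive cells in WT and 216 of 331 in CKO. Iglv3 (chr16:19241207-19241690, minus strand) had a UMI in 5.0% of WT and 7.05% of CKO lambda cells, and in 3.95% (3.22 to 4.79%) and 4.72% (4.24 to 5.24%) of kappa cells. In T cells an Iglv3 UMI was found in 1 of 7428 WT cells (0.0135%) and in none of 3069 CKO cells, with an exact upper bound of 0.120%. Iglv2 was rare, with 8 positive WT and 50 positive CKO cells, of which 5 and 24 were lambda.

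Within lambda cells Iglv1 was found mostly with Iglc1, and in CKO Iglv2 and Iglv3 mostly with Iglc2. Of Iglv1-positive lambda cells, 35 in WT and 82 in CKO had Iglc1 as the leading lambda constant gene, 6 and 10 had Iglc3, and 2 and 23 had Iglc2. Of Iglv2-positive lambda cells, 16 of 24 in CKO were led by Iglc2, and of Iglv3-positive ones 18 of 28. In WT these cells were too few to show a pattern: Iglc1 led 3 and Iglc2 2 of the 5 Iglv2-positive cells, and Iglc1 led 3, Iglc2 3 and Iglc3 1 of the 7 Iglv3-positive ones. The leading constant gene of all lambda cells was Iglc1 in 69.3% of WT cells (60.9 to 76.8%) and 56.7% of CKO cells (51.6 to 61.6%). It was Iglc2 in 22.9% (16.2 to 30.7%) and 35.3% (30.6 to 40.2%), and Iglc3 in 7.86 and 8.06%. The Iglc1-led share was thus lower in the CKO library and the Iglc2-led share higher, by 12.6 and 12.4 points.

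Of cells assigned an Iglv segment by the rule, 3 of 4 in WT and 12 of 20 in CKO were lambda by their constant genes. At 1 UMI this held for 38 of 64 WT and 101 of 231 CKO cells assigned Iglv1, but for 4 of 60 and 20 of 226 assigned Iglv3. Of the cells assigned an Igkv segment at 1 UMI, 3 of 681 and 8 of 1953 were lambda. A lambda share taken from Iglv segments therefore counts many cells with kappa constant transcripts.

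Some cells held transcripts of more than 1 segment. Among cells with any Igkv UMI, 55 of 775 in WT (7.10%, 5.39 to 9.14%) and 232 of 2364 in CKO (9.81%, 8.64 to 11.1%) held at least 2 Igkv segments. Their median depth was 4646 UMIs in WT and 5869.5 in CKO, against 4249 and 4144.5 in cells with 1 Igkv segment, and the part of depth and of doublets was not tested. Over all members, the pair found most often was Iglv1 with Iglv3, in 17 WT and 15 CKO cells, followed by Igkv1-117 with Iglv3, in 4 and 13. Near copies also met in 1 cell: Iglv1 with Iglv2 in 1 WT and 10 CKO cells, Igkv1-117 with Igkv1-110 in 2 and 3, and Igkv12-46 with Igkv12-44 in 4 CKO cells.

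Plasma-like cells, named by the markers given above, carried much of the segment signal. They numbered 22 in WT and 12 in CKO, of which 16 and 8 were in the gate and 9 and 5 were assigned by the rule. Those in the gate held 50.4% of all segment UMIs of gated cells in WT and 10.7% in CKO. Their leading segment had up to 154 UMIs in WT and 98 in CKO. Over all plasma-like cells, 13 WT cells with a dominant segment used 9 segments and 8 CKO cells used 8. In WT, Igkv1-110 led 4 of them and Igkv1-117 led 2, while in CKO no segment led more than 1. Among plasma-like cells of kappa type, 6 in WT and 3 in CKO had under 1000 Igkc UMIs. The name therefore need not mean antibody secretion in every cell.

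In plasma-like cells of kappa type with many Igkc UMIs, Iglv1 was usually found too. Of the 16 WT cells with at least 1000 Igkc UMIs, 14 held Iglv1 UMIs, with a median of 12 and up to 92, and all 8 such CKO cells did, with 2 to 45. Of those with fewer Igkc UMIs, none of 6 WT cells and 1 of 3 CKO cells held Iglv1. That CKO cell was led by Iglv1 with 3 UMIs and held more Iglc than Igkc UMIs, 351 against 114. It is named kappa only because mixed cells below the lambda threshold take that name. In the cells with at least 1000 Igkc UMIs, Iglv1 stood at 3.21 UMIs per 1000 Igkc UMIs in WT and 2.87 in CKO, against 0.557 and 0.771 in other kappa cells. In these plasma-like cells Iglv3 stood at 0.222 and 0.0998 per 1000 Igkc UMIs, below the 0.864 and 1.11 in other kappa cells. These cells held 2389 Iglc UMIs in WT beside 117035 of Igkc, and 1315 beside 40097 in CKO. In a pair of WT cells Iglv1 even led, with 68 UMIs against 59 of Igkv15-103 in a cell of 6047 Igkc and 92 Iglc UMIs, and with 32 against 17 of Igkv8-21 in the other. The source of these Iglv1 UMIs was not tested. The single lambda plasma-like cell with many segment UMIs, in CKO, held 47 UMIs of Iglv1 and 41 of Iglv2, the near copies shown above, beside 8604 of Iglc and 282 of Igkc.

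**Figure D5:**
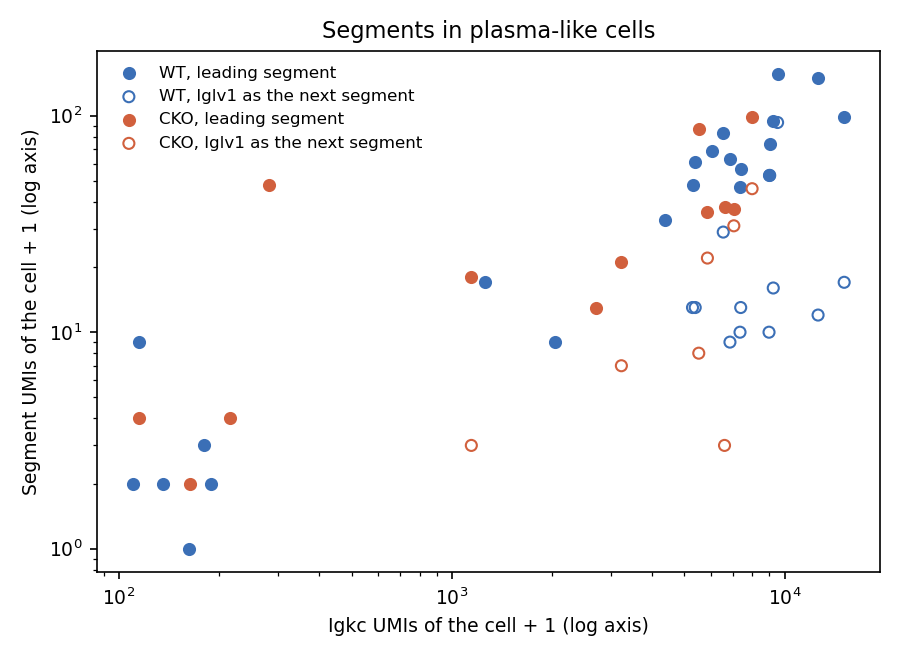
UMIs of the leading segment (filled points) and of Iglv1 where it was the next segment (open points) in each plasma-like cell of the WT and CKO libraries, against the cell's Igkc UMIs, with 1 added to both and both axes on a log scale. Open points appear in cells with over 1000 Igkc UMIs, below the leading segment of the same cell, with Iglv1 reaching 92 UMIs in a WT cell.

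Naive-type B cells made up most of the gate, so their closeness to the whole was largely fixed in advance. Cells with a UMI of both Ighd, the IgD heavy chain gene, and Fcer2a, the CD23 gene of follicular B cells, were 80.2% of gated cells in WT and 78.6% in CKO, plasma-like cells left out. Their lambda share by constant genes was 5.46% (4.53 to 6.52%) and 4.69% (4.16 to 5.26%), and their effective number of segments at 1 UMI was 48.7 and 45.4. Cells with only 1 of these genes had lambda shares of 4.94% (3.15 to 7.31%) and 7.56% (6.25 to 9.04%). In CKO that interval lay above the interval of cells with both genes, a difference that was not tested. Cells with neither, the B cells without IgD and CD23, numbered 35 and 129, of which 9 and 40 were assigned at 1 UMI. Their lambda shares were 6.06% (0.743 to 20.2%) and 8.06% (3.94 to 14.3%), and Iglv1 led their usage in CKO with 8 cells. These marker UMIs depend on depth, which was 3646 to 4037 UMIs in median in WT and 3714 to 3941.5 in CKO.

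The summed level of all members was lower in CKO with plasma-like cells and higher without them. All 2470 segment UMIs of WT gated cells made 202 CPM and the 4650 of CKO made 137, with a CKO over WT ratio of 0.676 (0.643 to 0.710). Leaving out plasma-like cells gave 104 CPM for WT and 123 for CKO, and the ratio turned to 1.18 (1.11 to 1.26). Fewer cells with transcripts and less RNA per cell cannot be told apart in such sums. Of the 163 members only Iglv1 passed a floor of 20 CPM in mean, with 38.0 CPM for WT and 16.6 for CKO. Without plasma-like cells Iglv1 had 124 UMIs in WT and 406 in CKO, or 10.5 and 12 CPM, and its CKO over WT ratio was 1.14 (0.932 to 1.41). Of 5470 genes that passed it, 70 (1.28%) were 1.5-fold or more apart, with 28 (0.512%) higher in CKO and 42 (0.768%) lower, and the median ratio was 1.03.

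Other genes of light chain assembly and the B cell receptor differed little above the floor once plasma-like cells were left out. Of 39 such genes, 24 passed the floor, 5 were at least 1.5-fold lower in CKO and none higher, with a median ratio of 1.02. The 5 were Igkc (16671 and 10153 CPM), Igha (1507 and 138), Ighg1 (248 and 0.0294), Ighg2b (668 and 109) and Ighg2c (614 and 100), the constant genes of kappa chains, IgA and IgG. Without plasma-like cells 20 passed the floor and none was 1.5-fold apart, while 0.895% of 5472 genes were. Igkc then stood at 9164 CPM for WT and 9328 for CKO. Below the floor Ighg2b still differed, with 27.4 CPM for WT and 2.31 for CKO. Ighg1 (44 and 1 UMIs), Ighg2c (ratio 0.371, 0.176 to 0.784) and Ighg3 (0.611, 0.423 to 0.890) were also lower in CKO. Rag1, taken up below, was higher.

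Factors that act at light chain genes and passed the floor stood at like levels in both libraries, plasma-like cells left out. The CKO over WT ratio was 1.0 for Pax5, 0.978 for Ebf1, 0.975 for Irf8, 1.17 for Irf4 and 1.11 for Spib. Pou2af1, a co-activator at octamer sites of immunoglobulin promoters, had a ratio of 0.940 (0.894 to 0.989). Rag1, which encodes a subunit of the recombinase, lay below the floor and differed, with no UMI in WT and 39 (1.15 CPM) in CKO. Its CKO over WT ratio had a lower bound of 3.52. Rag2 had 0 and 3 UMIs, with a lower bound of 0.144. The number of cells behind these UMIs is not given here. Igkj and Iglj segments had no UMI in either library, so J usage could not be read.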

How the data were processed

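Each library held deposited UMI counts per gene and barcode, whole numbers without normalization, made by the authors with Cell Ranger 6.0.2 per the file headers; per the submitters' processing notes, build mm10, Seurat 4.0.3 and Cell Ranger 5.0.0 were used, so the version is uncertain. Total depth was 84813609 UMIs in WT and 76200586 in CKO. The kit reads transcript 3′ ends per the labels' protocols. Groups came from the genotype labels.

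Members, gates and the assignment rule are given in the results. The members, gene lists and rule were chosen with earlier results of these data known. The named segments were those with at least 2% of assigned cells in a library, all Iglv members, the 5 highest and 5 lowest CKO over WT ratios among segments above the floor, and the pairs most often found in 1 cell. The ratios were ranked at 1 UMI, a choice made after the data were seen, since by the rule many were tied at 0 cells; Igkv4-59 and, for a tie, Igkv3-2 were named beside them, the former as the remaining segment past 1.5-fold. Shares have Clopper-Pearson intervals at 95% and ratios exact conditional binomial intervals. No filter on mitochondrial UMIs was applied; 26 WT and 78 CKO gated cells exceeded 10%. Positions, biotypes and transcripts were those of GENCODE M21 (GRCm38). Identity was measured by global alignment with Biopython 1.88. Recombination signals and promoters of the members were not analysed here. The steps used Python 3.11.15, NumPy 2.4.6, pandas 2.3.3 and SciPy 1.17.1. The assignment was tested on simulated data.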

Additional observations from a re-analysis of the deposited data

How the results depend on the processing

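No paired analysis was possible because each genotype has 1 library, which also left no replicate to leave out. By the rule, cells assigned were 1.44% of WT and 1.75% of CKO gated cells, but 5.85 and 6.70% with at least 2 UMIs, 0.418 and 0.160% with at least 5 (11 and 12 cells), 0.428 and 0.356% after thinning to 2000 UMIs, 30.8 and 32.4% at 1 UMI, and 1.41% in CKO with a lead of over 4 times the next segment. The effective number of segments was 12.1 (WT) and 18.5 (CKO) by the rule, 27.7 and 30.9 with 2 UMIs, 7.19 and 6.14 with 5, 7.19 in WT after thinning, 25.4 and 42.5 by segment UMIs, and 48.5 and 45.7 at 1 UMI. The summed difference between the profiles was 38.0% by the rule, 24.5% with 2 UMIs, 75% with 5, 76.9% after thinning and 13.0% at 1 UMI. Segments at least 1.5-fold apart numbered 20 by the rule, 11 with 5 UMIs, 34 with a floor of 0.2%, and 8 at 1 UMI, where thinning gave 18. The Iglv share, 10.5% in WT and 15.3% in CKO by the rule, was 27.3 and 11.5% after thinning (11 and 26 cells). With 5 UMIs it was 9.09 and 8.33%, and by segment UMIs 24.2 and 22.7%. The order of the libraries was thus reversed in these settings, whereas in the other settings of the rule the CKO share was higher. By constant genes at the 80% threshold the lambda share was 5.34 and 5.31%. Requiring 1 constant class to exceed 2 times the other left 37.2% of WT and 37.6% of CKO gated cells without a call. At 1 UMI, thinning assigned 17.6% of WT and 19.7% of CKO cells, and without Iglv3 the Iglv share was 9.85 and 11.3%, with 31.0% of CKO cells assigned. Requiring the constant gene of the same chain left 27.6 and 27.8% of cells assigned and an Iglv share of 6.48 and 6.49%. The constant-gene lambda share was 6.48 and 6.61% at a 70% threshold and 4.16 and 4.31% at 90%. Genes at least 1.5-fold apart in gated cells numbered 70, or 201 with a floor of 5 CPM. Of the shares of single segments under the alternatives, 454 stayed within their counting interval and 50 did not by the rule, and 250 and 6 at 1 UMI.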
